A study of Saccharomyces cerevisiae with 12 samples.

Results

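The 52 genes described here encode the general translation factors of Saccharomyces cerevisiae and 18 cytosolic subunits of its aminoacyl-tRNA synthetases. They were taken by gene symbol from the 6214 genes on the array, by a rule that uses no measured value, though the set was proposed with earlier results of these data known. All 52 had a probe. They comprise 24 initiation factor genes, 8 elongation factor genes, the 2 release factor genes and 18 synthetase genes. Of these, 51 could be tested; TIF4632 had values on 8 arrays and none from T73 at 48 h.

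The arrays compared strain ITD00185, read as the agave strain that the title names, with the wine yeast T73. Both were grown in synthetic agave must at 28 ºC and sampled at 48 h and 96 h, with 3 biological replicates in each of the 4 groups. Neither strain carries an engineered allele in the labels, and no added agent is named. Each of the 12 arrays held Cy5-labelled RNA of 1 strain beside a Cy3-labelled mix of samples, whose makeup the labels do not give beyond the time point of the array.

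Values are log2 ratios between these channels, so a difference of 1 is 2-fold. Which channel was divided by which is not stated. Strain over mix is likely, given the order of channels and dyes in the labels, and every "higher" and "lower" rests on that reading. Subtracting one strain from the other at the same time removes the mix if it was the same on those arrays. A ratio does not give the abundance of an mRNA, so different genes are not ranked by level, and the probes report on mRNA and not on protein or its activity.

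Translation begins when a ternary complex of eIF2, GTP and initiator tRNA joins the small ribosomal subunit, aided by eIF1, eIF1A, eIF3 and eIF5. The cap-binding complex eIF4F recruits the mRNA, and eIF2B reloads eIF2 with GTP. In elongation, eEF1A delivers aminoacyl-tRNA, eEF2 translocates the ribosome, and the fungal factor eEF3 acts on the ribosome in each cycle. eRF1 and eRF3 release the finished chain. Aminoacyl-tRNA synthetases attach each amino acid to its tRNA and fall into class I and class II, which have unrelated catalytic folds. In yeast the mRNAs of much of this machinery are abundant in rapid growth and fall when growth slows.

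Each array gave values for 5657 to 6116 probes, and for 48 to 52 of the 52 genes. Array medians over all probes ran from -0.03 to 0.43 and standard deviations from 1.03 to 2.08. The spread was widest in T73 at 48 h, at 1.80 to 2.08. Over the 52 genes, the array medians were 0.39 to 0.69 in ITD00185 and 0.62 to 1.07 in T73 at 48 h, and 0.05 to 0.52 and 0.04 to 0.37 at 96 h. ITD00185 48 h replicate 2 stood apart. Over these genes it correlated at 0.19 to 0.36 with the other replicates of its group and at 0.87 to 0.90 with the ITD00185 arrays of 96 h. All other pairs of arrays within a group correlated at 0.78 to 0.96. On that array 8 of the 52 genes lay more than 1 unit above both other replicates and 5 more than 1 unit below. Its part in the results below was not tested beyond leaving it out, and neither was that of the spread of the T73 48 h arrays beyond setting all arrays to one spread.

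**Figure D1:**
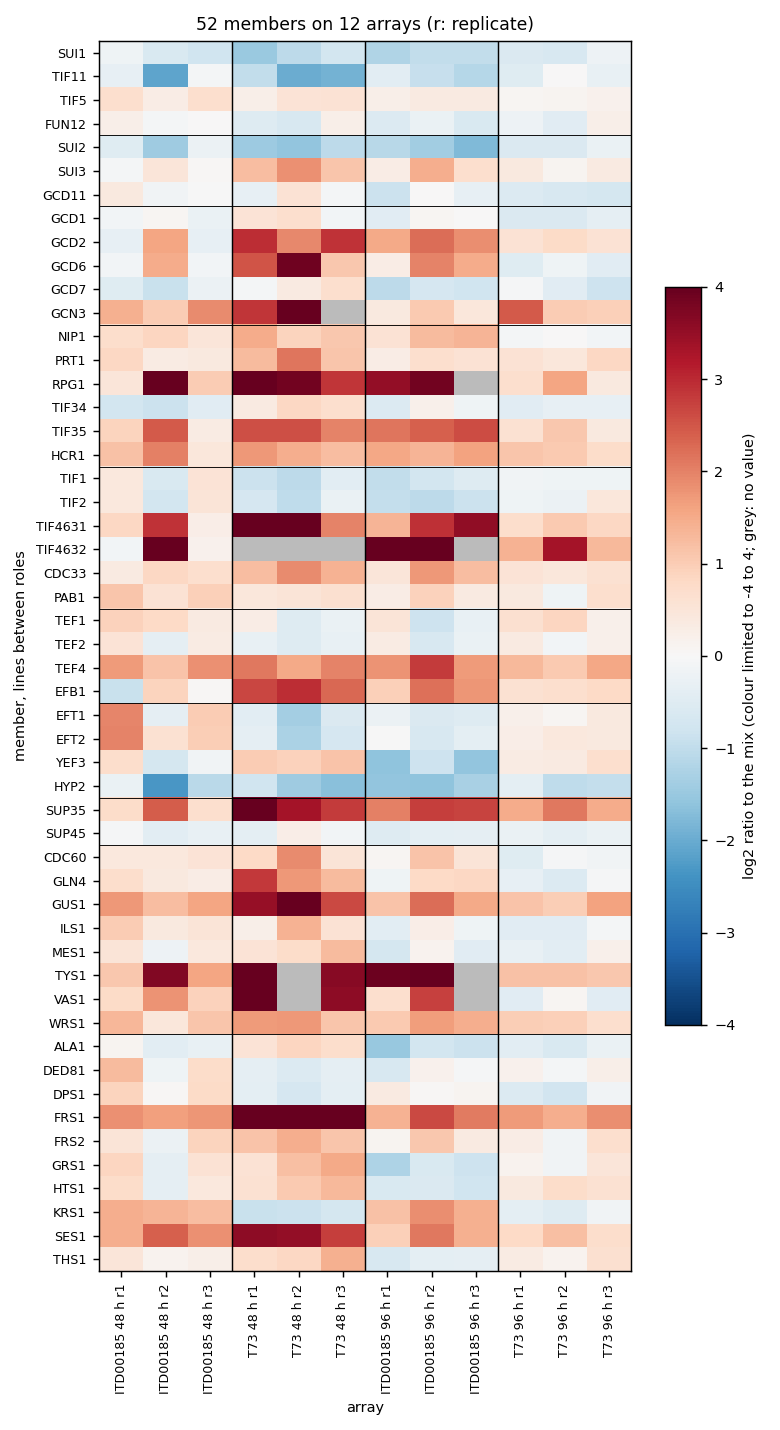
Log2 ratio to the mix of the 52 genes (rows, ordered by role with lines between roles) on the 12 arrays (columns, 3 per group, r for replicate). Red is above the mix, blue below, colour stops at 4 and -4, and grey marks no value. The T73 48 h arrays hold many of the deepest reds, and ITD00185 48 h replicate 2 resembles the 96 h arrays of its strain.

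At 48 h most of the genes that differed were lower in ITD00185. Of 51 tested, 24 passed the threshold of 0.05 on the adjusted p (47.1%), 6 higher and 18 lower. The background was 39.5% of 5474 genes, with 12.9% higher and 26.7% lower, so the share was near that of all genes. The median difference was -0.61, against -0.32 over all genes. Among the 24, 19 differed by 2-fold or more. Tests were limma's moderated tests, fitted to all genes and all 12 arrays and adjusted by Benjamini-Hochberg, and values after ± are standard errors of that fit. With all arrays scaled to one spread 9 of the 51 passed, 4 higher and 5 lower, beside 24.4% of all genes. With arrays centred on their medians the split was 8 higher and 12 lower, and after quantile normalization 7 higher and 4 lower, beside 23.1% of all genes. The count was 13 without ITD00185 48 h replicate 3 and also 13 without T73 48 h replicate 2, beside 26.4% and 29.7% of all genes. Without ITD00185 48 h replicate 2 it was 29, 10 higher and 19 lower, beside 52.8% of all genes.

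**Figure D2:**
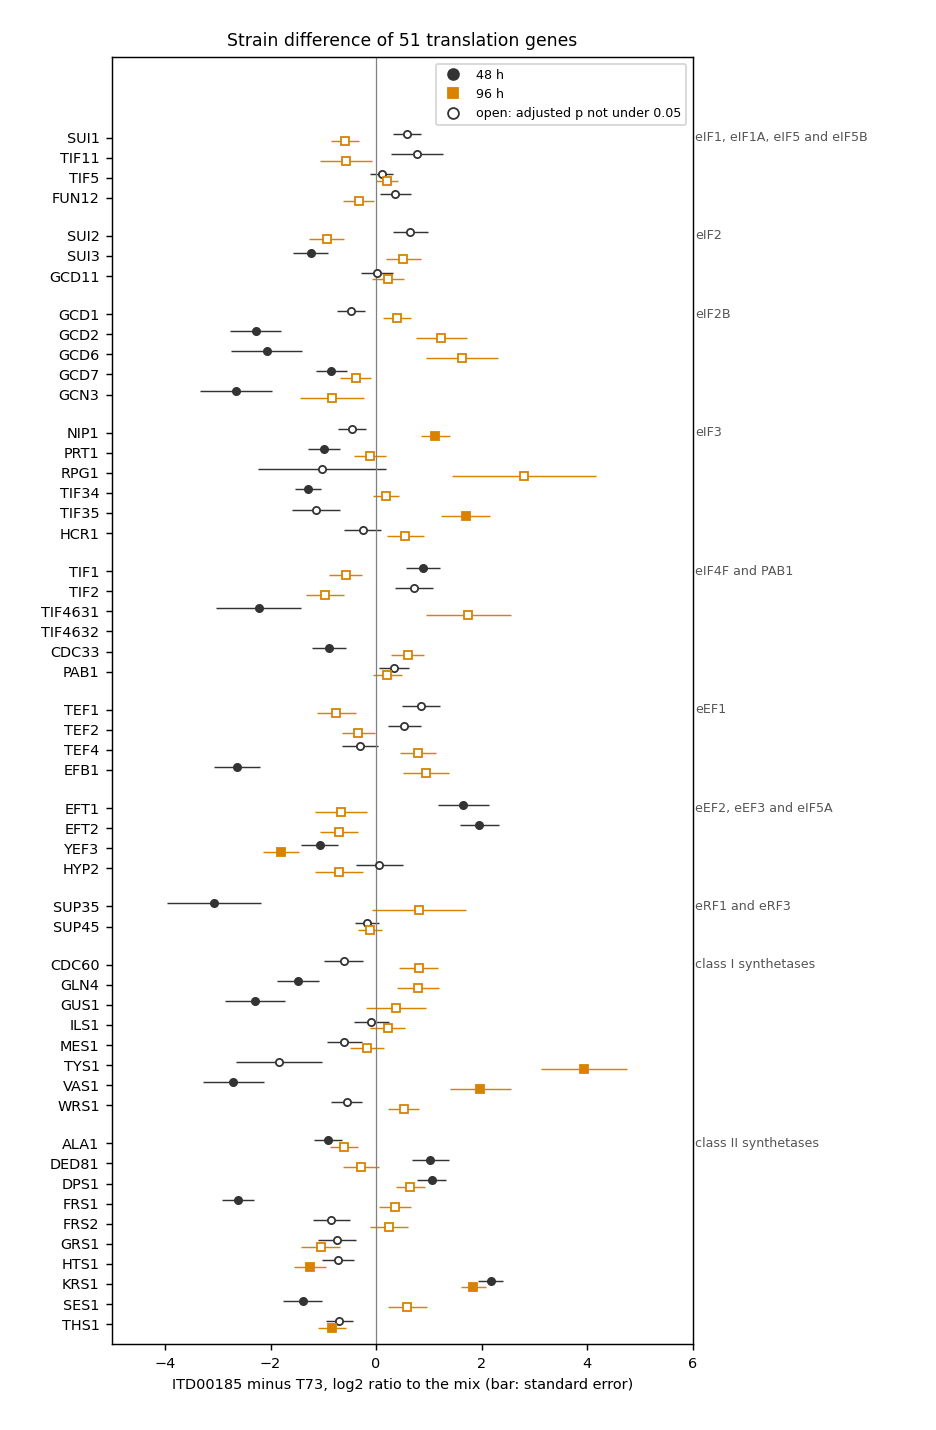
Difference ITD00185 minus T73 (log2 ratio to the mix, horizontal axis) for the 51 genes tested, at 48 h (black circles) and 96 h (orange squares), with standard errors as bars and open symbols where the adjusted p was not under 0.05. Black symbols lie mostly left of 0, with 18 filled on that side, and KRS1 lies right of 0 at both times.

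In initiation, 9 of 23 tested genes were lower at 48 h and 1 was higher. Of the 4 genes for eIF1, eIF1A, eIF5 and eIF5B, 0 passed in limma, also at an unadjusted p under 0.05, with differences of 0.11 to 0.77. In eIF2, the beta subunit SUI3 was lower by 1.24 on the log2 scale (-1.24 ± 0.33, adjusted p 0.0133), a call lost after quantile normalization (-0.70, adjusted p 0.0778). Its alpha subunit SUI2, the subunit phosphorylated in the amino acid starvation response, stood at 0.65 ± 0.33 (adjusted p 0.129), and the gamma subunit GCD11 at 0.02 ± 0.30 (adjusted p 0.971).

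Of the 5 subunit genes of eIF2B, 4 were lower in ITD00185 at 48 h, which was the highest count among the initiation groups. GCD2, the delta subunit, read -0.34, 1.57 and -0.33 on the ITD00185 arrays and 2.95, 1.92 and 2.89 on the T73 arrays. The groups did not overlap, although ITD00185 replicate 2 lay close to the lowest T73 array. GCD2 was 4.88-fold lower (-2.29 ± 0.48, adjusted p 0.00491) and stayed called at -1.70 with scaled arrays.

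GCD6, the catalytic epsilon subunit, was lower by 2.08 ± 0.68 (-2.08, adjusted p 0.0322), with overlapping arrays. It lost its call without ITD00185 48 h replicate 1 or 3 or T73 48 h replicate 1 or 2 (-2.06 to -1.39, adjusted p 0.0682 to 0.116) and with scaled arrays (-1.39, adjusted p 0.0852). GCN3, the alpha subunit through which eIF2B senses phosphorylated eIF2, read 1.41, 1.01 and 1.88 in ITD00185 and 2.86 and 5.32 on the 2 T73 arrays with a value. Its difference of -2.65 ± 0.68 (adjusted p 0.0133) shrank to -0.89 with scaled arrays (adjusted p 0.337). GCD7, the beta subunit, was lower (-0.85 ± 0.29, adjusted p 0.0396), a call lost on leaving out any of 7 arrays (adjusted p 0.0509 to 0.104). It was also lost with centred, scaled (-0.87, adjusted p 0.052) or quantile normalized arrays, with array weights and with the replicate number as a block. The gamma subunit GCD1 did not pass (-0.47 ± 0.27, adjusted p 0.173).

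All 6 eIF3 genes had negative differences at 48 h as deposited, as did 3328 of the 5474 genes tested. Of the 6, 2 passed (33.3%, beside 39.5% of all genes). NIP1, which did not pass, went from -0.46 to 0.027 with scaled arrays. TIF34, the eIF3i subunit, read -0.74, -0.86 and -0.45 in ITD00185 and 0.37, 0.81 and 0.66 in T73. Every ITD00185 array was below 0 and every T73 array above it. The difference of -1.30 ± 0.25 (adjusted p 0.00308, 2.45-fold) was -1.31 with scaled arrays, so it did not shrink. PRT1, the eIF3b subunit, was lower by 0.99 ± 0.30 (-0.99, adjusted p 0.0232). That call was lost without ITD00185 48 h replicate 3 or T73 48 h replicate 2 (adjusted p 0.0709 to 0.0745) and with scaled arrays (-0.38, adjusted p 0.337). RPG1, the largest eIF3 subunit, read 0.48, 6.26 and 1.01 in ITD00185, with replicate 2 far above the others, and its difference of -1.03 ± 1.22 carried the largest error of any gene here.

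The eIF4F genes did not move together at 48 h. The cap-binding protein CDC33 (-0.89 ± 0.32, adjusted p 0.0456) and the scaffold TIF4631 (-2.22 ± 0.80, adjusted p 0.0471) were lower, and the helicase eIF4A gene TIF1 was higher (0.89 ± 0.32, adjusted p 0.0453). These calls lay near the threshold. TIF1 lost its call on leaving out any of 10 arrays (adjusted p 0.0542 to 0.158), CDC33 any of 9 (adjusted p 0.0505 to 0.141) and TIF4631 any of 8 (adjusted p 0.0594 to 0.16). With scaled arrays the 3 did not pass, with CDC33 at -0.31 (adjusted p 0.395), TIF4631 at -1.06 (adjusted p 0.259) and TIF1 at 0.81 (adjusted p 0.103). PAB1, the poly(A)-binding protein, stood at 0.35 ± 0.28 (adjusted p 0.343).

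In elongation, the 2 genes of eEF2 were higher in ITD00185 at 48 h, while the eEF1B exchange factor and eEF3 were lower. EFT2 read 1.99, 0.61 and 0.99 in ITD00185 and -0.36, -1.26 and -0.66 in T73, without overlap. It was 3.89-fold higher (1.96 ± 0.36, adjusted p 0.00257), and 2.19 with scaled arrays. EFT1, which encodes the identical protein, read 1.96, -0.37 and 1.02 against -0.42, -1.36 and -0.56. Its difference was 1.65 ± 0.49 (adjusted p 0.0209), and ITD00185 replicate 2 lay just above the highest T73 array. Without ITD00185 48 h replicate 1 or 3 or T73 48 h replicate 2 it did not pass (1.11 to 1.57, adjusted p 0.0623 to 0.0742).

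EFB1, the exchange factor that reloads eEF1A with GTP, read -0.89, 0.89 and 0.04 in ITD00185 and 2.68, 2.96 and 2.30 in T73. It was lower (-2.63 ± 0.44, adjusted p 0.00144) and -2.03 with scaled arrays. YEF3, which encodes eEF3, read 0.70, -0.70 and -0.15 against 1.01, 0.92 and 1.13. At -1.07 ± 0.35 (adjusted p 0.0317) it was lower, but the call was lost with arrays centred, scaled (-0.71, adjusted p 0.212) or quantile normalized, and without ITD00185 48 h replicate 2 or 3 or any 1 T73 48 h array (-1.12 to -0.74, adjusted p 0.0576 to 0.0851). The eEF1A genes TEF1 and TEF2 did not pass (0.85 ± 0.36 and 0.53 ± 0.31, adjusted p 0.0818 and 0.191). TEF4, an eEF1B gamma gene, stood at -0.31 ± 0.34 (adjusted p 0.487), and HYP2, an eIF5A gene, at 0.06 ± 0.45 (adjusted p 0.921).

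In termination, SUP35 (eRF3), also known for its prion form, read 0.75, 2.42 and 0.67 in ITD00185 and 6.94, 3.33 and 2.80 in T73 at 48 h. T73 replicate 1 was far above the rest. The difference of -3.08 ± 0.89 (adjusted p 0.0196) fell to -1.79 without T73 48 h replicate 1, where it still passed (adjusted p 0.0249). It did not pass without ITD00185 48 h replicate 1 or 3 (-2.82 to -2.78, adjusted p 0.0664 to 0.0669) or with scaled arrays (-1.68, adjusted p 0.095). SUP45 (eRF1) stood at -0.18 ± 0.23 (adjusted p 0.554).

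Among the 18 synthetase genes, 6 were lower and 3 higher in ITD00185 at 48 h. KRS1, the lysyl-tRNA synthetase, read 1.47, 1.37 and 1.23 in ITD00185 and -0.89, -0.86 and -0.69 in T73. The 3 arrays of each strain lay close together, ITD00185 replicate 2 included. KRS1 was higher (2.17 ± 0.23, adjusted p 0.000169), and 2.36 with scaled arrays.

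DPS1, the aspartyl enzyme, read 0.89, 0.06 and 0.75 against -0.40, -0.68 and -0.38, a difference of 1.05 ± 0.27 (adjusted p 0.0124). It kept its call with each array left out and with scaled arrays (1.17). Like most genes called at 48 h, it lost the call in a fit of only the 48 h arrays. DED81, the asparaginyl enzyme, read 1.26, -0.16 and 0.73 against -0.35, -0.56 and -0.36. Its difference of 1.03 ± 0.35 (adjusted p 0.0362) did not pass on leaving out any of 6 arrays (adjusted p 0.0519 to 0.138) or with scaled arrays (1.21, adjusted p 0.0569).

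All 8 class I synthetase genes had negative differences at 48 h as deposited, as did 3328 of the 5474 genes tested. Of the 8, 3 passed (37.5%, beside 39.5% of all genes). VAS1, the valyl enzyme, read 0.76, 1.79 and 0.94 in ITD00185 and 4.17 and 3.56 on the 2 T73 arrays with a value. It was 6.53-fold lower (-2.71 ± 0.58, adjusted p 0.00713), and -1.50 with scaled arrays (adjusted p 0.0422). GUS1, the glutamyl enzyme, read 1.75, 1.24 and 1.58 against 3.49, 5.34 and 2.63. Its difference of -2.30 ± 0.57 (adjusted p 0.00981) was -0.70 with scaled arrays (adjusted p 0.267). GLN4, the glutaminyl enzyme, read 0.69, 0.38 and 0.30 against 2.83, 1.73 and 1.25 (-1.48 ± 0.40, adjusted p 0.0153), a call lost without ITD00185 48 h replicate 3 (-1.40, adjusted p 0.0501) and with scaled arrays (-0.80, adjusted p 0.125). The methionyl, leucyl, tryptophanyl, tyrosyl and isoleucyl genes did not pass, with differences from -1.84 (TYS1, 2 T73 arrays, adjusted p 0.0966) to -0.09 (ILS1, adjusted p 0.847).

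In class II, FRS1 had the smallest adjusted p of the 18 lower genes. It encodes the beta subunit of the phenylalanyl enzyme, a tetramer with FRS2. FRS1 read 1.82, 1.64 and 1.78 in ITD00185 and 4.22, 4.28 and 4.59 in T73. The difference was -2.62 ± 0.30 (adjusted p 0.000246, 6.14-fold), but with scaled arrays it was -0.88 (adjusted p 0.0824). SES1, the seryl enzyme, read 1.45, 2.40 and 1.83 against 3.59, 3.51 and 2.76 (-1.39 ± 0.37, adjusted p 0.0138). It was 0.021 with scaled arrays (adjusted p 0.965), and it did not pass without ITD00185 48 h replicate 1 (-1.17, adjusted p 0.055). ALA1, the alanyl enzyme, was lower (-0.91 ± 0.27, adjusted p 0.0207), except without ITD00185 48 h replicate 3 or T73 48 h replicate 2 (adjusted p 0.0588 to 0.0626) and with scaled arrays (-0.74, adjusted p 0.0764).

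**Figure D3:**
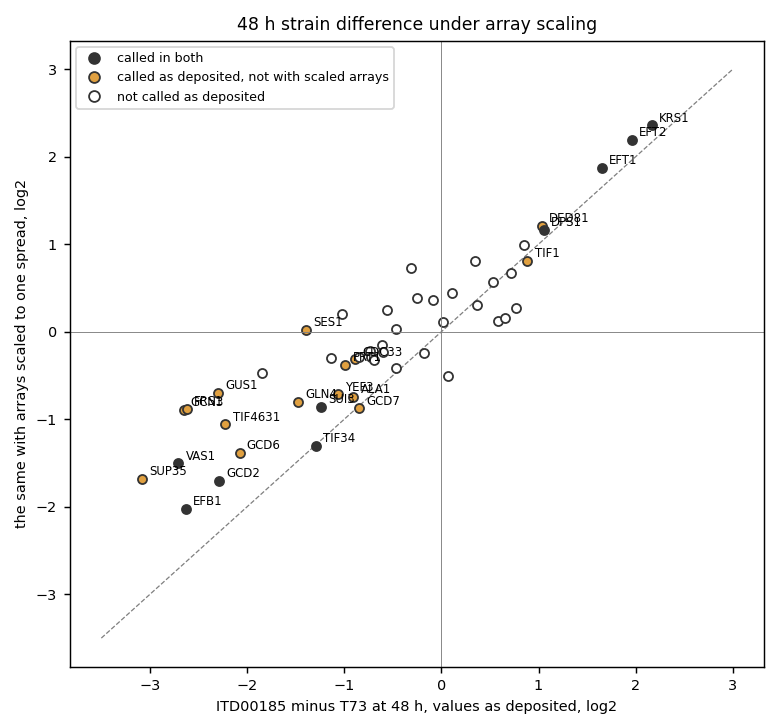
Difference ITD00185 minus T73 at 48 h for the 51 genes as deposited (horizontal axis, log2) and after scaling every array to an equal spread (vertical axis, log2), with the line of equality dashed. KRS1 (2.17 and 2.36) and TIF34 (-1.30 and -1.31) lie near the line, while FRS1 (-2.62 and -0.88), GUS1 (-2.30 and -0.70) and SES1 (-1.39 and 0.021) move toward 0.

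Of the 24 genes called at 48 h, 11 kept their call with each single array left out that could be, 18 with centred arrays, 9 with scaled arrays and 9 after quantile normalization. The 7 that kept it under all of these were GCD2, TIF34, EFB1, EFT2, VAS1, DPS1 and KRS1. A fit of only the 48 h arrays called 7 of the 51 genes, beside 14.1% of all genes. These were GCD2, TIF34, EFB1, EFT2, VAS1, FRS1 and KRS1, so the other calls at 48 h were lost there. For VAS1 8 and for GCN3 10 of the 12 arrays could be left out, since a group with 1 value left was not fitted, so the T73 48 h arrays behind these calls were not among them. The 3 arrays of the strains did not overlap for 24 of the 48 genes with all 6 values, beside 40.8% of all genes.

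**Figure D4:**
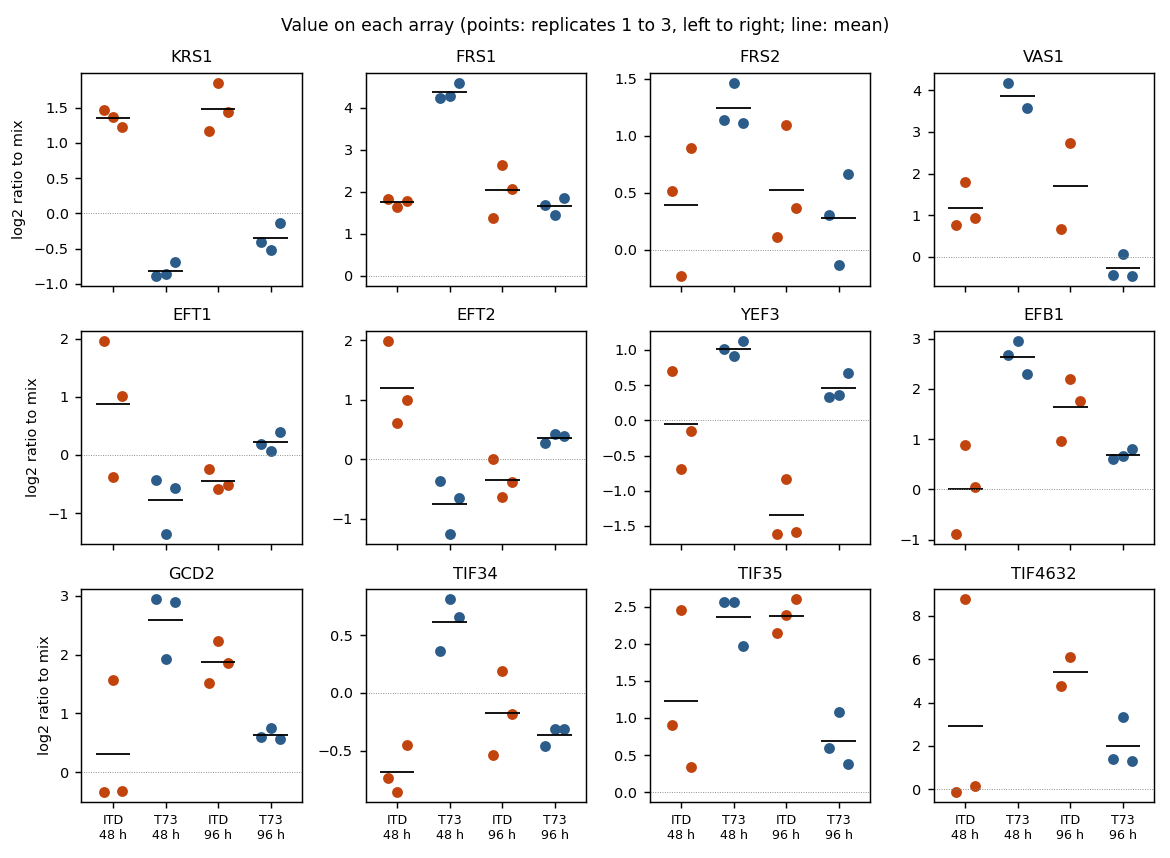
Log2 ratio to the mix on each array for 12 of the genes, in the 4 groups, with ITD00185 in orange and T73 in blue, points in the order of replicates 1 to 3 and a line at the mean. KRS1 separates the strains at both times, FRS1 is highest in T73 at 48 h, and TIF4632 has no value in T73 at 48 h.

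At 96 h fewer genes passed than at 48 h in the fit of all 12 arrays, and they were no longer mostly lower. Of 51 tested, 8 passed (15.7%), 5 higher and 3 lower in ITD00185, beside a background of 22.5%, with 12% higher and 10.5% lower. The median difference was 0.22, against -0.01 over all genes. All 8 kept their calls with centred, scaled and quantile normalized arrays, and 3 of them with each array left out that could be, YEF3 and KRS1 with all 12 and TYS1 with 8. TYS1 could not be fitted without either of the 2 ITD00185 96 h or 2 T73 48 h arrays that hold its values. Leaving out ITD00185 48 h replicate 2 gave 14, ITD00185 96 h replicate 1 gave 5, T73 96 h replicate 1 gave 4, and any of ITD00185 96 h replicates 2 and 3 and T73 96 h replicate 3 gave 3. The share of all genes was 33.9% in the first of these runs and 10% to 17.2% in the others. Among 48 genes with all 6 values the strains did not overlap for 25, 13 higher and 12 lower, beside 57.6% of all genes. The lower count at 96 h than at 48 h depended on the fit. With each time fitted alone 7 passed at 48 h and 21 at 96 h, beside 14.1% and 42% of all genes. With scaled arrays 9 and 8 passed, beside 24.4% and 23%, and with array weights 31 and 38, beside 56.4% and 64.7%.

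KRS1 was again higher in ITD00185 at 96 h. It read 1.17, 1.85 and 1.44 against -0.40, -0.51 and -0.14 in T73, a difference of 1.84 ± 0.23 (adjusted p 0.000796, 3.58-fold). The change from the difference at 48 h was -0.33 ± 0.33 (adjusted p 0.44, 95% confidence interval -1.06 to 0.40). KRS1 and YEF3 were the 2 genes called in the same direction at both times, which holds for 5.64% of all genes.

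YEF3 was lower at 96 h. It read -1.61, -0.84 and -1.59 in ITD00185 and 0.34, 0.35 and 0.68 in T73, so every ITD00185 array lay below the mix and every T73 array above it. The difference was -1.80 ± 0.35 (adjusted p 0.00536, 3.49-fold). In contrast to 48 h, this call held with each array left out and under each scaling.

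TYS1, the tyrosyl enzyme, had the largest difference at 96 h. It read 3.94 and 6.21 on the 2 ITD00185 arrays with a value and 1.17, 1.18 and 1.06 in T73. The difference of 3.94 ± 0.81 (adjusted p 0.0101, 15.3-fold) rests on those 2 arrays, which differ by more than 2 units. VAS1 was also higher, from 0.66 and 2.73 in ITD00185 against -0.45, 0.07 and -0.46 in T73. Its difference of 1.97 ± 0.58 (adjusted p 0.0392) did not pass without ITD00185 48 h replicate 3, ITD00185 96 h replicate 3 or any 1 T73 96 h array (1.88 to 2.15, adjusted p 0.051 to 0.11).

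In eIF3, NIP1 and TIF35 were higher at 96 h. NIP1, the eIF3c subunit, read 0.57, 1.28 and 1.36 against -0.07, 0.005 and -0.10, a difference of 1.12 ± 0.27 (adjusted p 0.0144). TIF35, the eIF3g subunit, read 2.15, 2.39 and 2.61 against 0.60, 1.08 and 0.38, a difference of 1.70 ± 0.46 (adjusted p 0.0247). The strains did not overlap for either gene. Both lost their calls without ITD00185 96 h replicate 2 or 3 or T73 96 h replicate 1 or 3 (NIP1 0.98 to 1.12 with adjusted p 0.0532 to 0.0637, TIF35 1.55 to 1.69 with adjusted p 0.0705 to 0.0901). TIF34, lower at 48 h, stood at 0.19 ± 0.25 (adjusted p 0.604).

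HTS1 and THS1 were lower at 96 h. HTS1, the histidyl enzyme, read -0.60, -0.57 and -0.81 in ITD00185 and 0.40, 0.72 and 0.62 in T73 (-1.25 ± 0.30, adjusted p 0.0153). Its call was lost without ITD00185 96 h replicate 3 or T73 96 h replicate 3 (-1.23 to -1.17, adjusted p 0.0541 to 0.0582). THS1, the threonyl enzyme, read -0.65, -0.40 and -0.35 against 0.34, 0.12 and 0.65 (-0.84 ± 0.26, adjusted p 0.0408), a call lost on leaving out any of 7 arrays (adjusted p 0.0519 to 0.146). The other groups had 0 genes past the threshold in limma at 96 h. At an unadjusted p under 0.05 they had 2 in eIF2B, 1 each in eIF2, eIF4F with PAB1, eEF1 and the group of eIF1, and 0 in the release factors. In eIF2B, GCD2 stood at 1.23 ± 0.48 (adjusted p 0.0864) and GCD6 at 1.63 ± 0.68 (adjusted p 0.103), both with non-overlapping arrays.

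The change of the strain difference between the times was then tested as an interaction term. Of 51 genes, 23 passed (45.1%), 16 toward ITD00185 and 7 toward T73, beside a background of 38% (24.4% and 13.6%). The median change was 0.46, against 0.20 over all genes, and it turned to -0.21 after quantile normalization. The sign of the difference was opposite at the 2 times for 36 of 51 genes (57.5% of all genes). With scaled arrays 10 passed (19.6%), 8 toward ITD00185 and 2 toward T73, beside 22.6% of all genes. After quantile normalization 11 passed (21.6%), 6 and 5, beside 22.8%. Leaving out ITD00185 48 h replicate 1 gave 15, and leaving out ITD00185 96 h replicate 2 gave 13, beside 24.6% and 24.2% of all genes. Without ITD00185 48 h replicate 2 the count was 29, beside 54.2% of all genes.

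**Figure D5:**
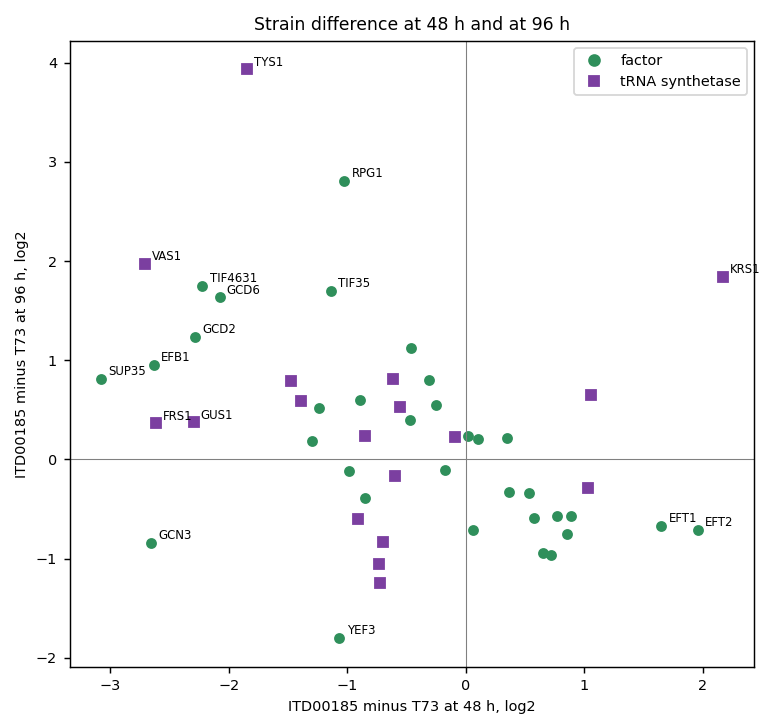
Difference ITD00185 minus T73 at 96 h (vertical axis, log2) against that at 48 h (horizontal axis, log2) for 51 genes, factors as green circles and synthetases as purple squares. Genes at the upper left, such as TYS1, VAS1 and EFB1, turned from negative to positive, EFT1 and EFT2 at the lower right turned the other way, and KRS1 lies farthest to the upper right.

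Synthetase genes that passed the interaction test all moved toward ITD00185, 6 of 18, whereas the factors were divided, 10 of 33 toward ITD00185 and 7 toward T73. Whether these shares differ was not tested. TYS1 had the largest change (5.78 ± 1.15, adjusted p 0.00711), followed by VAS1 (4.68 ± 0.82, adjusted p 0.00463). For TYS1 the difference went from -1.84 to 3.94 and for VAS1 from -2.71 to 1.97, each resting on 2 values in 2 of the groups. FRS1 changed by 2.98 ± 0.43 (adjusted p 0.0018), GUS1 by 2.67 ± 0.80 (adjusted p 0.0251), GLN4 by 2.27 ± 0.57 (adjusted p 0.0136) and SES1 by 1.98 ± 0.52 (adjusted p 0.0161). For these 4 the T73 arrays of 48 h were the highest group. With scaled arrays FRS1 changed by 0.68 (adjusted p 0.317), GUS1 by 0.63 (adjusted p 0.476) and SES1 by 0.22 (adjusted p 0.695), and only GLN4 of the 4 still passed (1.56, adjusted p 0.0484). After quantile normalization the 4 did not pass, at 0.37, 0.28, -0.055 and 1.33 for FRS1, GUS1, SES1 and GLN4. As deposited, GUS1 did not pass without ITD00185 96 h replicate 2 or T73 96 h replicate 1 or 2 (2.37 to 2.62, adjusted p 0.051 to 0.0623).

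Among initiation factors, 8 of 23 changed toward ITD00185 and 4 toward T73. TIF4631 (3.97 ± 1.14, adjusted p 0.0214), GCD6 (3.71 ± 0.96, adjusted p 0.0151) and GCD2 (3.52 ± 0.68, adjusted p 0.00497) changed most among those that passed. GCD2 and GCD6 kept their calls with each array left out and under each scaling. TIF4631 lost its call without ITD00185 48 h replicate 1 or 3 or ITD00185 96 h replicate 3 (3.44 to 3.73, adjusted p 0.0504 to 0.0511) and with scaled arrays (2.35, adjusted p 0.0888). In eIF3 the changes of TIF35 (2.84 ± 0.65), NIP1 (1.59 ± 0.38) and TIF34 (1.48 ± 0.35) passed, with adjusted p of 0.00943, 0.0111 and 0.0108. With scaled arrays TIF34 still passed (1.56), while TIF35 (1.64, adjusted p 0.0665) and NIP1 (0.98, adjusted p 0.0576) did not. SUI2 (-1.59 ± 0.46, adjusted p 0.0225) and SUI3 (1.76 ± 0.46, adjusted p 0.0158, and 1.00 with adjusted p 0.0717 after quantile normalization), subunits of the same eIF2 trimer, changed in opposite directions. SUI2 lost its call without ITD00185 48 h replicate 1 or 3, ITD00185 96 h replicate 3 or T73 96 h replicate 3 (-1.49 to -1.35, adjusted p 0.0522 to 0.056) and with scaled arrays (-0.87, adjusted p 0.14).

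In elongation, EFB1 changed toward ITD00185 by 3.58 ± 0.62 (adjusted p 0.0031). EFT2 changed toward T73 (-2.67 ± 0.51, adjusted p 0.00479), as did EFT1 (-2.32 ± 0.69, adjusted p 0.0243) and TEF1 (-1.61 ± 0.52, adjusted p 0.0322). EFT1 did not pass without ITD00185 48 h replicate 3, ITD00185 96 h replicate 2, T73 48 h replicate 2 or T73 96 h replicate 3 (-2.25 to -2.03, adjusted p 0.0515 to 0.0563). TEF1 did not pass on leaving out any of 6 arrays (adjusted p 0.0661 to 0.0752). At 96 h EFT2 read -0.003, -0.65 and -0.39 in ITD00185 and 0.27, 0.42 and 0.40 in T73, so the order of the strains was the reverse of that at 48 h, though the 96 h difference alone did not pass (-0.71 ± 0.36, adjusted p 0.176).

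Of the 23 genes called in the interaction test, 13 kept their call with each array left out that could be, which was 8 of 12 for TYS1 and VAS1, without the arrays that hold their 2 values in a group. The 7 that also kept it with centred, scaled and quantile normalized arrays were GCD2, GCD6, TIF34, EFB1, EFT2, TYS1 and VAS1.

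Within strains, the change of the ratio from 48 h to 96 h uses a mix labelled 48 h for one value and a mix labelled 96 h for the other, so it is not a change of expression alone. In T73, 24 of 51 genes passed (47.1%), 23 lower at 96 h and 1 higher, beside 32.4% of all genes, with 23.9% lower and 8.42% higher. The median was -0.88, against -0.30 over all genes. In ITD00185, 3 passed (5.88%), 1 higher and 2 lower, beside 6.52% of all genes, with 3.82% higher and 2.7% lower. With scaled arrays the T73 count was 10 (19.6%, beside 17.2% of all genes), and after quantile normalization it was 4 (7.84%, beside 14%). It was 13 without T73 48 h replicate 2, beside 18.7% of all genes, and 11, 13 and 12 without T73 96 h replicates 1, 2 and 3, beside 17.1%, 23% and 17.7%.

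As deposited, the fall in T73 included 7 of 8 class I synthetase genes, 4 of 5 eIF2B genes and 4 of 6 eIF3 genes. It included 3 of 10 class II synthetase genes, 1 of 3 in eIF2, 2 of 5 in eIF4F with PAB1, 1 of 4 in eEF1 and 1 of 2 release factors. The group of eIF1 and that of eEF2, eEF3 and eIF5A had 0 each. Of all genes, 23.9% were called lower. The groups were counted only in values as deposited, whereas the total called went from 24 to 10 with scaled arrays and to 4 after quantile normalization. As deposited, VAS1, with values on 2 T73 48 h arrays, fell by 4.14 on the log2 scale (-4.14 ± 0.58, adjusted p 0.00245) and FRS1 by 2.70 (-2.70 ± 0.30, adjusted p 0.00121). SES1 fell by 2.38 (-2.38 ± 0.37, adjusted p 0.00245) and GLN4 by 2.25 (-2.25 ± 0.40, adjusted p 0.00402). EFT2 was the gene that rose (1.12 ± 0.36, adjusted p 0.0362). In ITD00185 the 3 genes were EFB1, which rose (1.63 ± 0.44, adjusted p 0.0496), and EFT2 and YEF3, which fell (-1.54 ± 0.36 and -1.30 ± 0.35, adjusted p 0.0381 and 0.0499). EFB1 and EFT2 thus passed in both strains with opposite signs. Without ITD00185 48 h replicate 2 the ITD00185 count was 16 (31.4%, beside 39.2% of all genes). It was 1 without T73 48 h replicate 1, beside 5.06% of all genes. It was 0 without ITD00185 48 h replicate 1 or 3, any 1 ITD00185 96 h array or any 1 T73 96 h array, beside 0.131% to 2.82% of all genes.

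Some of these genes are near-identical copies whose probes may not be separate measurements. Within an array, TIF1 and TIF2, both of eIF4A, differed by a median of 0.09 and at most 0.65. EFT1 and EFT2 differed by a median of 0.09 and at most 0.99, on ITD00185 48 h replicate 2. TEF1 and TEF2 differed by a median of 0.19 and at most 1.16, on the same array. The copies had the same sign of strain difference at each time. TIF2 stood at 0.72 ± 0.35 at 48 h and -0.97 ± 0.36 at 96 h (adjusted p 0.124 and 0.0702), and its change of -1.69 ± 0.50 passed (adjusted p 0.0246), as did that of TIF1 (-1.46 ± 0.45, adjusted p 0.0276). Without ITD00185 48 h replicate 1 or 3, ITD00185 96 h replicate 2, T73 48 h replicate 2 or T73 96 h replicate 3 the change of TIF2 did not pass (-1.64 to -1.46, adjusted p 0.0516 to 0.063). That of TIF1 was lost on leaving out any of 7 arrays (adjusted p 0.0553 to 0.0643).

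The eIF4G genes TIF4631 and TIF4632, which encode alternative scaffolds of eIF4F, differed widely in the size of their values. Both were highest on ITD00185 48 h replicate 2 and ITD00185 96 h replicates 1 and 2, among the 8 arrays with both. TIF4632 read -0.12, 8.77 and 0.17 in ITD00185 at 48 h, where replicate 2 stood far above the others. At 96 h it read 4.77 and 6.09 on 2 ITD00185 arrays and 1.39, 3.34 and 1.31 in T73. TIF4631 on the same arrays read 0.84, 2.89 and 0.27, then 1.37 and 2.91, then 0.71, 1.04 and 0.82. On the 8 arrays with both, the gap had a median of 1.63 and reached 5.88 on ITD00185 48 h replicate 2.

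As deposited, the subunits of the phenylalanyl enzyme differed in the size of their shift. FRS2, the alpha subunit, read 0.51, -0.23 and 0.89 in ITD00185 and 1.14, 1.46 and 1.11 in T73 at 48 h, a difference of -0.85 ± 0.36 that did not pass (adjusted p 0.0779). FRS1 minus FRS2 within an array was 1.31, 1.87 and 0.89 in ITD00185 and 3.08, 2.82 and 3.48 in T73 at 48 h, without overlap. At 96 h the same gap was 1.27, 1.56 and 1.71 in ITD00185 and 1.39, 1.59 and 1.19 in T73, with overlap. These gaps are from values as deposited, where arrays of T73 at 48 h had standard deviations of 1.80 to 2.08. Those of ITD00185 at 48 h had 1.03 to 1.52. The gap was not computed with scaled arrays, on which the 48 h difference of FRS1 went from -2.62 to -0.88. No test of this gap was made, in limma or otherwise, so the lack of overlap at 48 h only describes the arrays. An exact permutation test of 3 arrays against 3 cannot go below p = 0.1.

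Related genes outside the 52 were read from 5 lists of 42 genes, of which 39 were tested. At 48 h 5 were higher and 11 lower (41%), at 96 h 10 higher and 3 lower (33.3%), and in the interaction test 12 changed toward ITD00185 and 3 toward T73 (38.5%). The backgrounds are those given above. ANB1, the eIF5A paralog of HYP2, did not pass at either time (0.24 ± 0.32 and -0.33 ± 0.32, adjusted p 0.568 and 0.468).

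Of 11 other initiation and elongation factors, 2 were higher and 2 lower at 48 h, and 3 higher and 1 lower at 96 h. TIF3, the eIF4B of yeast, was lower at 48 h (-1.64 ± 0.28, adjusted p 0.00174) and higher at 96 h (1.55 ± 0.28, adjusted p 0.00419), and kept both calls with each array left out. Of 5 general control genes, which act in the response to amino acid starvation, 1 was lower at 48 h and 0 passed at 96 h in limma, also at an unadjusted p under 0.05. The lower gene was GCN20 (-1.08 ± 0.31, adjusted p 0.0196), which stood at 0.11 with scaled arrays and did not pass without T73 48 h replicate 3 (-0.80, adjusted p 0.054).

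Of the other cytosolic synthetases and ARC1, 4 genes, 1 was higher and 1 lower at each time. ARC1, a cofactor that binds the methionyl and glutamyl enzymes and tRNA, was lower at 48 h (-2.01 ± 0.54, adjusted p 0.016) and higher at 96 h (2.75 ± 0.48, adjusted p 0.0044). The 48 h call was lost with scaled arrays (-0.60, adjusted p 0.284) and without ITD00185 48 h replicate 1 (-1.64, adjusted p 0.0523) or 3 (-1.72, adjusted p 0.054), and the 96 h call was kept with each array left out except T73 48 h replicates 1 and 3, without which ARC1 could not be fitted. The 2 enzymes it binds, MES1 and GUS1, did not pass at 96 h (-0.17 ± 0.32 and 0.37 ± 0.57, adjusted p 0.725 and 0.657).

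Mitochondrial translation genes also differed in both directions. Of 13 mitochondrial synthetases 1 was higher and 4 lower at 48 h, led by MSF1, the phenylalanyl enzyme (-2.09 ± 0.23, adjusted p 0.00021), MST1, the threonyl enzyme (-3.73 ± 0.53, adjusted p 0.000646), and NAM2, the leucyl enzyme (-1.92 ± 0.40, adjusted p 0.00561). At 96 h 3 were higher and 0 lower. Of 6 mitochondrial factors 1 was higher and 3 lower at 48 h, and 3 were higher and 1 lower at 96 h. TUF1, the mitochondrial elongation factor Tu, went from 1.32 ± 0.30 (adjusted p 0.00688) to -1.09 ± 0.30 (adjusted p 0.0263), and the release factor MRF1 from -3.73 ± 0.65 (adjusted p 0.00229) to 1.92 ± 0.58 (adjusted p 0.0393). The 48 h calls of these 5 genes held with each array left out that could be, which for NAM2 and MRF1 excludes T73 48 h replicates 1 and 3, their only values in that group, though that of MSF1 was lost after quantile normalization (-0.76, adjusted p 0.119). At 96 h TUF1 and MRF1 each lost the call without ITD00185 96 h replicate 2 or 3 or T73 96 h replicate 1 or 3, TUF1 at -0.90, -1.13, -0.90 and -1.17 and MRF1 at 1.82, 1.70, 1.97 and 1.94, and MRF1 also without T73 96 h replicate 2 (1.85).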

How the data were processed

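RNA of 2 strains at 2 times was hybridized to 12 two-colour arrays, 3 biological replicates per group. The authors deposited a table of log2 ratios, 1 value per probe and array; the labels and the file give no scanning, background or normalization step (not given in the sources used here), and scale, centring and direction stay unstated. Per the labels' protocols RNA was amplified linearly and labelled as cDNA, with no dye swap, so a dye bias remains within a group.

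Of 6246 probes 5753 matched the S288C gene table by systematic name and 34 by synonym, and 459 kept their names. Probes of a gene were averaged, giving 6214 genes. Genes with at least 2 values in every group (5474) were fitted with 4 group means in limma 3.58.1 (R 4.3.3), with moderated two-sided tests, 8 residual and 3.16 prior degrees of freedom, Benjamini-Hochberg adjustment and a threshold of 0.05. The fit was checked on simulated data. Precision is limited by the number of arrays.

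The 52 genes and the related lists were chosen with earlier results of these data known. Genes named with values were those called with all 6 values and no overlap, up to 6 per direction and time, the 4 largest changes per direction, the pairs of copies or partners, and up to 3 called genes per related list and time. Other members that passed, and some that did not, are named to account for their group, and were chosen after their values were seen. Of the related genes this rule gave, CLU1, CAM1, YHR020W, CAF20, YDR341C, MSR1, ISM1, NAM2 at 96 h and MEF2 are counted only. No sequence is shown.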

Additional observations from a re-analysis of the deposited data

Results flagged for a closer look

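For 23 of the 51 genes tested the strain difference changed between 48 h and 96 h by the interaction term of the limma fit, with an adjusted p under 0.05 over all 5474 genes, beside 38% of all genes. The largest changes toward ITD00185 were those of TYS1 (5.78), VAS1 (4.68), TIF4631 (3.97), SUP35 (3.89), GCD6 (3.71), EFB1 (3.58) and GCD2 (3.52), in log2 units. SUP35 did not pass on leaving out any of 6 arrays (3.59 to 3.79, adjusted p 0.0644 to 0.0739). FRS1 (2.98), TIF35 (2.84), GUS1 (2.67), GLN4 (2.27), SES1 (1.98), SUI3 (1.76), NIP1 (1.59), CDC33 (1.49) and TIF34 (1.48) changed in the same direction by smaller amounts. CDC33 did not pass on leaving out any of 7 arrays (1.19 to 1.52, adjusted p 0.0513 to 0.0617). The changes toward T73 were those of EFT2 (-2.67), EFT1 (-2.32), TIF2 (-1.69), TEF1 (-1.61), SUI2 (-1.59), TIF1 (-1.46) and SUI1 (-1.17). SUI1, the eIF1 gene, did not pass on leaving out any of 7 arrays (-1.23 to -0.98, adjusted p 0.0571 to 0.0802). With all arrays scaled to one spread 10 of the 23 changes passed. Among the rest SUP35 stood at 1.92, TIF4631 at 2.35, TIF35 at 1.64, NIP1 at 0.98, FRS1 at 0.68, CDC33 at 0.65, GUS1 at 0.63, SES1 at 0.22, SUI1 at -0.54, SUI2 at -0.87, TIF1 at -1.29, TIF2 at -1.56 and EFT1 at -2.54, none of them called.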

How the results depend on the processing

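Counts of genes called at 48 h, at 96 h, in the change of the difference, over time in ITD00185 and over time in T73 were 24, 8, 23, 3 and 24. With arrays scaled to one spread they were 9 at 48 h, 10 in the change, 1 in ITD00185 (4.33% of all genes) and 10 in T73. After quantile normalization they were 11 at 48 h, 11 in the change and 4 in T73. Without a minimum of values per group 1 was called over time in ITD00185 (4.48% of all genes). With weights estimated for arrays 38 were called at 96 h (64.7% of all genes) and 32 over time in ITD00185 (60.4% of all genes). When each time was fitted alone, 7 were called at 48 h (14.1% of all genes) and 21 at 96 h (42%). Leaving out single arrays gave 13 to 29, 3 to 14, 13 to 29, 0 to 16 and 11 to 32. The same runs called 26% to 52.8%, 10% to 33.9%, 23.5% to 54.2%, 0.131% to 39.2% and 17.1% to 42.5% of all genes. Among the calls given here, signs reversed for SES1 at 48 h (0.021 scaled, 0.19 after quantile normalization), for its change of difference (-0.055 after quantile normalization) and for GCN20 at 48 h (0.11 and 0.37). The median change over the 51 genes also reversed (-0.21 after quantile normalization). Differences that were not called could change sign too, as for NIP1 at 48 h (-0.46 as deposited, 0.027 scaled, 0.26 after quantile normalization). The cause of these shifts was not tested. With the replicate number as a block the counts were 27, 10, 24, 4 and 23, beside 43.2%, 26.4%, 41%, 12.5% and 34.9% of all genes. In that fit GCD7 at 48 h was no longer called (adjusted p 0.0515). Same-numbered arrays correlated at -0.19 to 0.52 in their deviations from group means, with 8 of 18 pairs over 0.1. Differently numbered ones correlated at -0.41 to 0.32, with 8 of 36 pairs over 0.1. These values do not settle whether the numbers pair samples, and the main fit used no block. Centring changed 10 of 178 single-gene calls, and leaving out values beyond 10 changed 0. The 3 arrays per group, and TYS1, VAS1, GCN3, RPG1 and TIF4632 with fewer, limit what these data can show. Signal over background was not used here.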
